A study of Mus musculus with 23 samples.

Results

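The comparison set cortical gene expression of mice that had eaten doxycycline (dox) early in life and were later challenged with bacterial lipopolysaccharide (LPS) against that of LPS-challenged mice that had never received dox. It took all LPS-injected mice of the study, 6 Dox+LPS and 5 LPS mice of 23 WT mice. All 770 genes of the panel were tested, so no mouse or tested gene was picked by its value. The comparison, the gene lists and the tests were chosen with earlier results of these data known. Cortical RNA was measured on the nCounter Mouse Neuroinflammation panel, whose bar-coded probes are tallied as single molecules with no amplification step. Dox+LPS mice had 100 mg/kg dox in their chow, given to dams and litters, from postnatal day 3 until they were 6 weeks old, and plain chow for another 6 weeks. LPS mice had plain chow for life. Both groups received 2 mg/kg LPS intraperitoneally at 12 weeks of age and were harvested 18 h later, after perfusion with PBS. All were WT siblings on a B6FVB background from the cross that makes CaMKIIα-tTA;tetO-APP mice, and carried neither transgene. There were 3 males and 3 females among the Dox+LPS mice and 3 males and 2 females among the LPS mice. The saline-injected mice, 4 Dox and 8 Untreated, entered the model for the spread of each gene. Litters and cages are not given, so p-values measure the spread between single mice.

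LPS is sensed by Toll-like receptor 4 with its co-receptor CD14, and it activates the transcription factor NF-kB and, through a separate branch, type I interferon. In the brain after a systemic dose, endothelium, microglia and astrocytes respond with chemokines, acute-phase proteins and interferon-stimulated genes, while transcripts typical of resting microglia decline. The study gave dox because tetracycline-controlled transgenes need it, and asked whether an early antibiotic course leaves a later inflammatory response altered.

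No gene passed the threshold of an adjusted p under 0.05 with a log2 fold change above 0.5 or below -0.5 in the quasi-likelihood test of edgeR, in either direction (0 of 770 genes, 0.0%). The lowest adjusted p was 0.139, shared by Cxcl9, Cxcl10, Myrf, Mef2c and Amigo2. At an unadjusted p under 0.05, 62 genes (8.05%) were higher and 40 (5.19%) were lower in Dox+LPS mice. The median log2 fold change over all genes was 0.00, with 398 genes positive and 372 negative. These panel values are the background of the counts given for gene lists below. Of the 678 genes above background in at least 6 of the 11 LPS-injected mice, 535 (78.9%) had a 95% interval of the log2 difference that lay within 0.5 of 0, and 655 (96.6%) one that lay within 1. The median half-width of those intervals was 0.20, with a range of 0.08 to 0.51 between the 5th and 95th percentiles. All 23 genes whose interval reached past 1 did so on the side of higher expression in Dox+LPS mice, and 3 of them also reached below -1. The count of calls was not 0 with every tool. DESeq2 gave an adjusted p of 0.0363 to 6 genes (0.779%), namely Cxcl9, Cxcl10, Amigo2, Myrf, Mef2c and Rbfox3. Cxcl9 and Cxcl10 alone of these also passed the fold threshold. With 1 factor of unwanted variation taken from the control probes (RUVg), as the study's methods name without giving the number of factors, Cxcl9 (adjusted p = 0.000377) and Amigo2 (adjusted p = 0.00708) passed both thresholds in the likelihood ratio test of edgeR (2 genes, 0.26%).

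**Figure D1:**
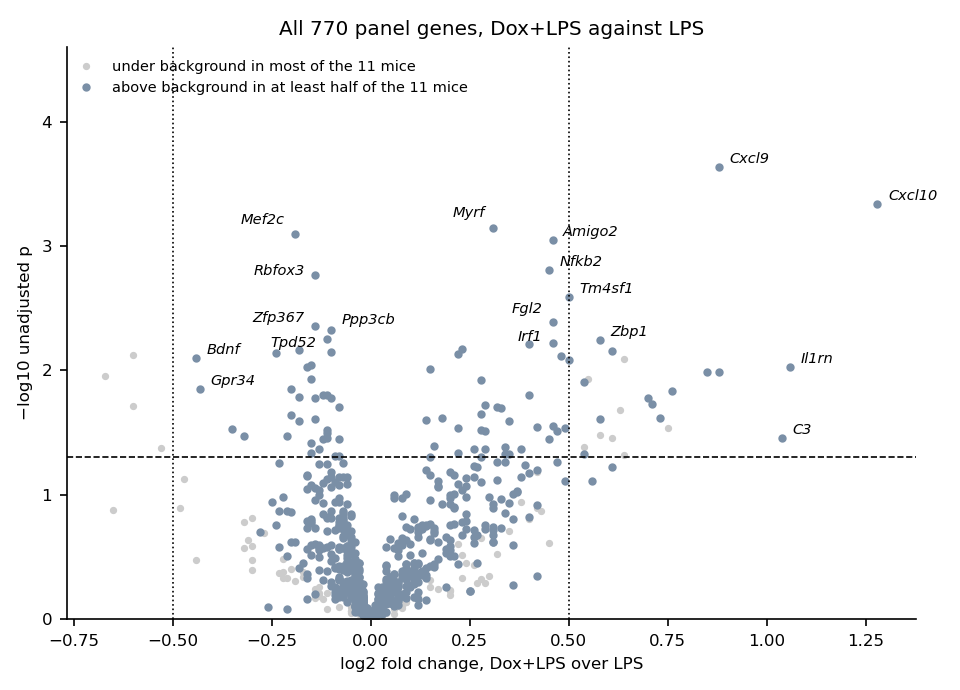
Each point is 1 of 770 genes, with the log2 fold change of Dox+LPS over LPS on the x axis and the −log10 of the unadjusted edgeR p on the y axis. Dotted lines stand at fold changes of 0.5 and -0.5, and the dashed line marks the unadjusted threshold of 0.05. Cxcl9 and Cxcl10 lie farthest up on the right, and no gene above background lies farther to the left than -0.44.

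Total panel counts ran from 661681 to 804471 in Dox+LPS mice and from 676678 to 785277 in LPS mice, and 644 to 694 genes in Dox+LPS mice and 645 to 683 in LPS mice exceeded the background of the mouse, set 2 SD above the mean of its negative control probes. The 11 mice given LPS shared a cartridge, and the 12 saline controls were run on a different one, so that LPS and cartridge cannot be told apart. Within their cartridge, Dox+LPS mice were in lanes 7 to 12 and LPS mice in lanes 1 to 6, so that lane order and dox cannot be told apart. On the first principal component of the 11 mice, which held 28.9% of the variance and weighted Mmp12, Ccl5, Cxcl10 and Gbp2 as well as the Y-linked Kdm5d and Uty, the scores of Dox+LPS replicates 1 to 6 were 8.66, -2.46, -2.29, 5.33, 3.98 and -1.64. LPS replicates 1 to 5 scored 0.13, 2.57, -8.98, -3.81 and -1.49. Thus LPS replicate 3, a male, stood apart at the low end and Dox+LPS replicate 1, also male, at the high end. Without LPS replicate 3 the genes at an unadjusted p under 0.05 numbered 40 (5.19%) higher and 21 (2.73%) lower, and again none passed the threshold (lowest adjusted p 0.282). Without Dox+LPS replicate 1 there were 46 (5.97%) higher and 47 (6.1%) lower, with none past the threshold.

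**Figure D2:**
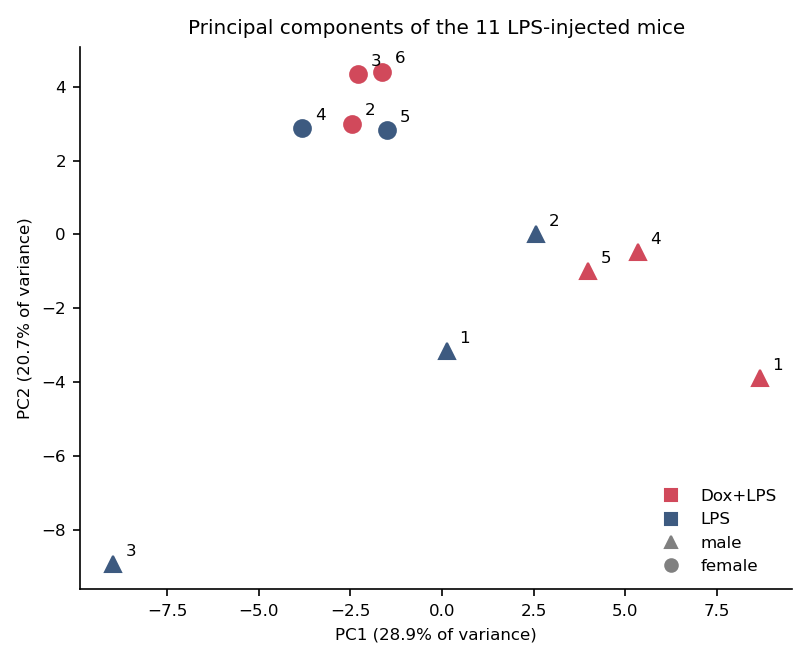
Scores of the 11 LPS-injected mice on the first 2 principal components of log2 normalized counts, labelled by replicate number. Females of both groups lie together at the upper left, LPS replicate 3 lies alone at -8.98 and -8.94, and Dox+LPS replicate 1 lies farthest to the right at 8.66. The second component weights the Y-linked Kdm5d (-0.48) and Uty (-0.47) most, so the height of females on it partly reflects these genes.

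Of all gene lists, the interferon-induced ligands of CXCR3, a chemokine receptor of T cells, had the highest median log2 fold change (1.08 over 2 measured genes). Those 2 are Cxcl9 and Cxcl10, which share the lowest adjusted p of the panel, so the rank of the list only restates them. Cxcl9, which is induced mainly by interferon gamma, had normalized counts of 38.1 at the lowest, 43.6 at the median and 76.5 at the highest in Dox+LPS mice, against 29.4, 35.1, 15.7, 23.9 and 33.4 in LPS mice. The groups did not overlap. The log2 difference was 0.88 ± 0.20 (SE), with a 95% interval of 0.46 to 1.3 and an adjusted p of 0.139. Leaving out 1 mouse at a time gave 0.73 to 0.98. Its level was not far from background, and the lowest LPS mouse, replicate 3, was under it.

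Cxcl10, a ligand of the same receptor that type I interferon, interferon gamma and NF-kB all induce, had 98.5, 144 and 355 normalized counts at the lowest, median and highest in Dox+LPS mice, against 87.0, 85.5, 23, 60.2 and 97.5 in LPS mice. The groups did not overlap, though the highest LPS mouse stood close under the lowest Dox+LPS mouse. The log2 difference was 1.28 ± 0.32 (interval 0.63 to 1.93, adjusted p = 0.139). It was 1.06 without LPS replicate 3 and 0.94 without Dox+LPS replicate 1, which held the highest count.

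The start sites of Cxcl9 and Cxcl10 lie 20810 bases apart on the minus strand of chromosome 5. The 250 bases before each start site are shown because these 2 genes had the lowest adjusted p among chemokines and both are known targets of interferon and NF-kB signalling (RefSeq, GRCm38.p6, chr5:92328080-92328329 for Cxcl9 and chr5:92348890-92349139 for Cxcl10, minus strand). Capitals mark matches to an interferon response core, GAAANNGAA, and to an NF-kB-like motif, GGGANNTTC, each searched on both strands.
Cxcl9: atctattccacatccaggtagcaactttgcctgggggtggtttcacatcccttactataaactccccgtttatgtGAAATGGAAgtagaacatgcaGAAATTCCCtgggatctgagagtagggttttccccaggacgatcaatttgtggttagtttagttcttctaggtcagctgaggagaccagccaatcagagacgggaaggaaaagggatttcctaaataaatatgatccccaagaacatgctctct
Cxcl10: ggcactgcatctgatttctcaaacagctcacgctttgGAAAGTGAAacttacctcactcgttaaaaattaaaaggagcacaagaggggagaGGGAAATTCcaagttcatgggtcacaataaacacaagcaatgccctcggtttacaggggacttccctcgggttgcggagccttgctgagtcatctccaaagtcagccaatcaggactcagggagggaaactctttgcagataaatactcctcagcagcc
Cxcl9 held the interferon core 175 bases and the NF-kB-like motif 154 bases before its start, the second on the opposite strand. Cxcl10 held them 213 and 159 bases before its start. No other pattern was searched, so sites of another form are left in lower case. Over 32851 RefSeq promoters of the same length, 7.13% held the interferon core and 3.23% the NF-kB-like motif. Neither was present in the same window of Amigo2. Both chemokine genes were picked as known targets, so their matches are no test of these pathways. Whether the motifs bear on the difference by dox was not tested.

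Interferon-stimulated genes with antiviral functions leaned the same way. All 8 measured members of the list had a positive log2 fold change, with a median of 0.51 against 0.00 over all genes, and 5 of the 8 had an unadjusted p under 0.05. None passed the threshold, the lowest adjusted p being 0.245. Zbp1, a sensor of Z-form nucleic acids that can trigger cell death, had 139, 168 and 207 normalized counts at the lowest, median and highest in Dox+LPS mice, against 120, 135, 53.4, 117 and 143 in LPS mice. One LPS mouse reached into the range of the Dox+LPS group (log2 difference 0.58 ± 0.19, interval 0.19 to 0.98, adjusted p = 0.245). Rsad2, encoding the antiviral enzyme viperin, differed by 0.71 ± 0.28 (adjusted p = 0.291), and by 0.34 without Dox+LPS replicate 1, which had 275 counts. Gbp2, an interferon-induced GTPase, ranged from 415 to 771 in Dox+LPS mice and had 52.3 in LPS replicate 3 and 422 to 654 in the other LPS mice. The median of the list was 0.31 without LPS replicate 3, and 3 of the 8 members then had an unadjusted p under 0.05 on the higher side. It was 0.40 without Dox+LPS replicate 1, with 2 members.

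Among 18 nucleic acid sensors and interferon transcription factors, 4 had an unadjusted p under 0.05, all higher, and the median was 0.13. Without LPS replicate 3 there were 2, with a median of 0.09. Irf1, a transcription factor of the interferon gamma response, had 241, 325 and 406 normalized counts in Dox+LPS mice, lowest to highest, against 269, 240, 134, 214 and 314 in LPS mice. Of the LPS mice, 2 lay within the range of the Dox+LPS group and 3 under it (0.46 ± 0.15, interval 0.15 to 0.78, adjusted p = 0.245). Irf7, which drives the later type I interferon response, differed by 0.49 ± 0.21 (adjusted p = 0.325). The receptor subunits Ifnar1 and Ifnar2 differed by 0.02 and 0.01. Of 5 genes of antigen processing none had an unadjusted p under 0.05. Psmb8, a subunit of the immunoproteasome, differed by 0.31 ± 0.22 with all mice and by 0.09 without LPS replicate 3, whose count of 116 lay under the 329 to 545 of the other LPS mice.

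**Figure D3:**
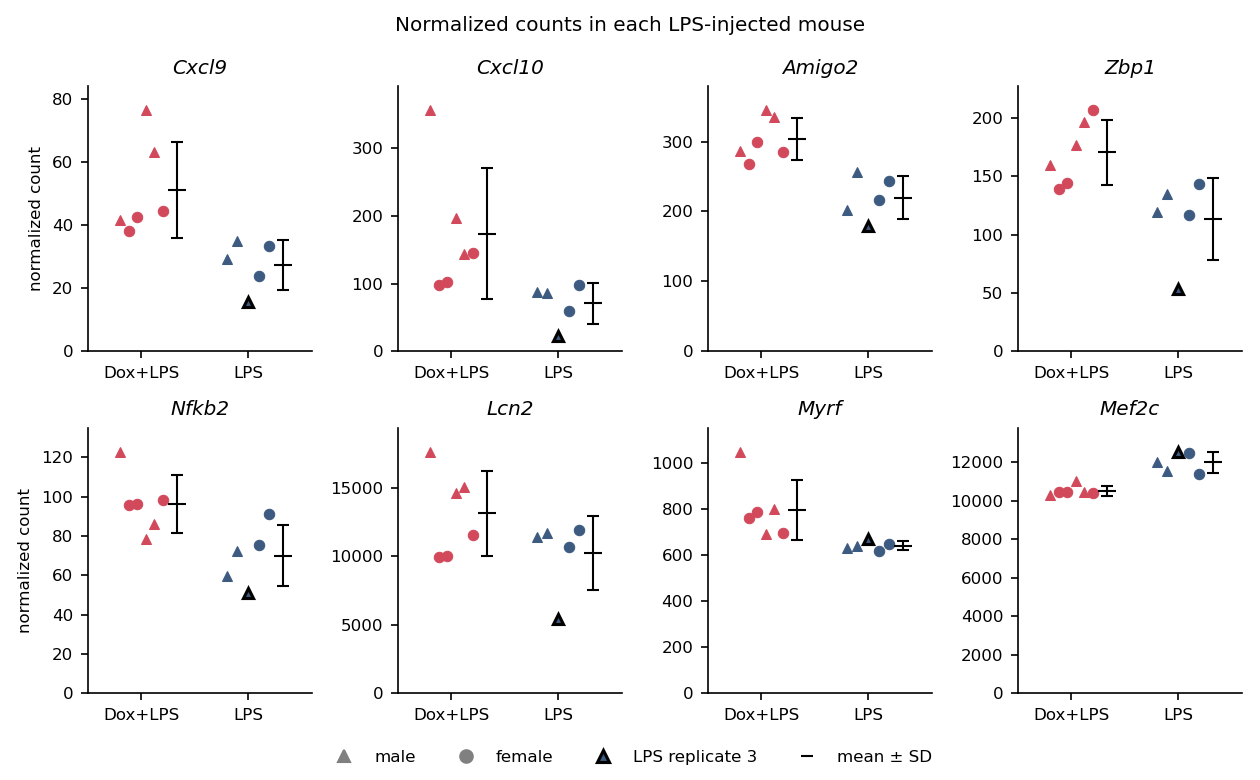
Normalized counts of 8 genes in each LPS-injected mouse, Dox+LPS on the left and LPS on the right, with means and SD beside the points. Triangles are males and circles females, and the black outline marks LPS replicate 3. The groups do not overlap for Cxcl9, Cxcl10, Amigo2, Myrf and Mef2c.

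Of the genes nearest to LPS sensing itself, none passed the threshold. All 9 measured genes of the Toll-like receptor list had a positive log2 fold change, with a median of 0.17, and 2 had an unadjusted p under 0.05. The median was 0.11 without Dox+LPS replicate 1, and 1 gene then had such a p, as without LPS replicate 3. Tlr2, a receptor of bacterial lipoproteins that LPS induces, had 71.7, 85.5 and 121 normalized counts in Dox+LPS mice at the lowest, median and highest, against 52.4, 67.4, 26.2, 48.8 and 98.4 in LPS mice (0.61 ± 0.21, adjusted p = 0.245). Only LPS replicate 5 lay within the Dox+LPS range. Cd14, the LPS co-receptor, differed by 0.47 ± 0.20 (adjusted p = 0.325).

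NF-kB genes had a median of 0.13 over 9 members, and 2 had an unadjusted p under 0.05. The median was 0.05 without LPS replicate 3 and 0.07 without Dox+LPS replicate 1, with 1 such gene in either case. Nfkb2, the precursor of the p52 subunit and itself an NF-kB target, had 78.5, 96.1 and 123 normalized counts in Dox+LPS mice, against 59.8, 72.2, 51.3, 75.5 and 91.3 in LPS mice. LPS replicate 5 overlapped the Dox+LPS group and the other 4 LPS mice did not (0.45 ± 0.13, interval 0.19 to 0.72, adjusted p = 0.188). Birc3, an inhibitor of apoptosis that NF-kB induces, differed by 0.40 ± 0.13 (adjusted p = 0.245). In the interleukin 1 and TNF families, 3 of 23 genes had an unadjusted p under 0.05, all higher, beside 8.05% over the panel, and the median was 0.11. The median was 0.06 without LPS replicate 3 (2 genes) and also without Dox+LPS replicate 1 (1 gene). Il1rn, the natural antagonist of the interleukin 1 receptor, had 19.3, 34.8 and 118 normalized counts in Dox+LPS mice, against 22.0, 24.7, 16.7, 22.0 and 22.8 in LPS mice. Its difference of 1.06 ± 0.37 (adjusted p = 0.251) became 0.53 without Dox+LPS replicate 1. Of the cytokines themselves, Il1a differed by 0.33 ± 0.24 (adjusted p = 0.596), Il1b by 0.12 ± 0.23 and Tnf by 0.03 ± 0.24.

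The 5 measured CC chemokines had a median of 0.47. Ccl3, a macrophage and microglial chemokine, had 55.0, 67.2 and 175 normalized counts in Dox+LPS mice, against 74.4, 40.8, 24.1, 32.5 and 86.1 in LPS mice (0.88 ± 0.32, adjusted p = 0.251). Ccl2, the main attractant of monocytes, differed by 0.58 ± 0.24 (adjusted p = 0.312) and by 0.37 without Dox+LPS replicate 1. Ccl5 showed no direction, with 195 to 545 normalized counts in Dox+LPS mice against 281, 853, 22.0, 489 and 294 in LPS mice. Its log2 difference was 0.00 ± 0.42, its interval of -0.87 to 0.88 was wide, and the value became -0.30 without LPS replicate 3.

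Acute-phase and reactive glia genes had a median of 0.38 over 9 members, all with a positive log2 fold change and 5 with an unadjusted p under 0.05. Lcn2, an iron-binding acute-phase protein that LPS strongly induces, had 9968, 13091 and 17611 normalized counts at the lowest, median and highest in Dox+LPS mice, against 11439, 11724, 5449, 10667 and 11938 in LPS mice. Dox+LPS mice thus lay on both sides of 4 of the 5 LPS mice, and the log2 difference of 0.36 had an interval of -0.82 to 1.54, which also carries the large spread of this gene in saline-injected mice. Steap4, a metalloreductase of the acute-phase response, differed by 0.85 ± 0.31 (adjusted p = 0.251), and by 0.49 without Dox+LPS replicate 1. Timp1, an inhibitor of metalloproteinases, had 277 to 411 normalized counts in Dox+LPS mice, against 297, 380, 62.8, 281 and 217 in LPS mice (0.49 ± 0.27, adjusted p = 0.438). Ceruloplasmin (Cp) differed by 0.34 ± 0.16 (adjusted p = 0.374). The list had 2 members with an unadjusted p under 0.05 without LPS replicate 3 and 0 without Dox+LPS replicate 1. In a fit with a mean for each group and sex, described further on, its median was 0.72 in males and -0.01 in females.

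Complement genes had a median of 0.08 over 9 members, and 2 had an unadjusted p under 0.05, against 0 without LPS replicate 3 and 3 without Dox+LPS replicate 1. C3, the central component of the cascade, had 189, 349 and 593 normalized counts in Dox+LPS mice at the lowest, median and highest, against 183, 308, 40.8, 107 and 245 in LPS mice. The difference of 1.04 ± 0.46 (interval 0.08 to 2.00, adjusted p = 0.333) was among the least precise of the panel. Serping1, the inhibitor of the C1 complex, differed by 0.40 ± 0.15 (adjusted p = 0.276), and C5ar1, the receptor of the C5a fragment, by 0.11 ± 0.12 (adjusted p = 0.803).

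**Figure D4:**
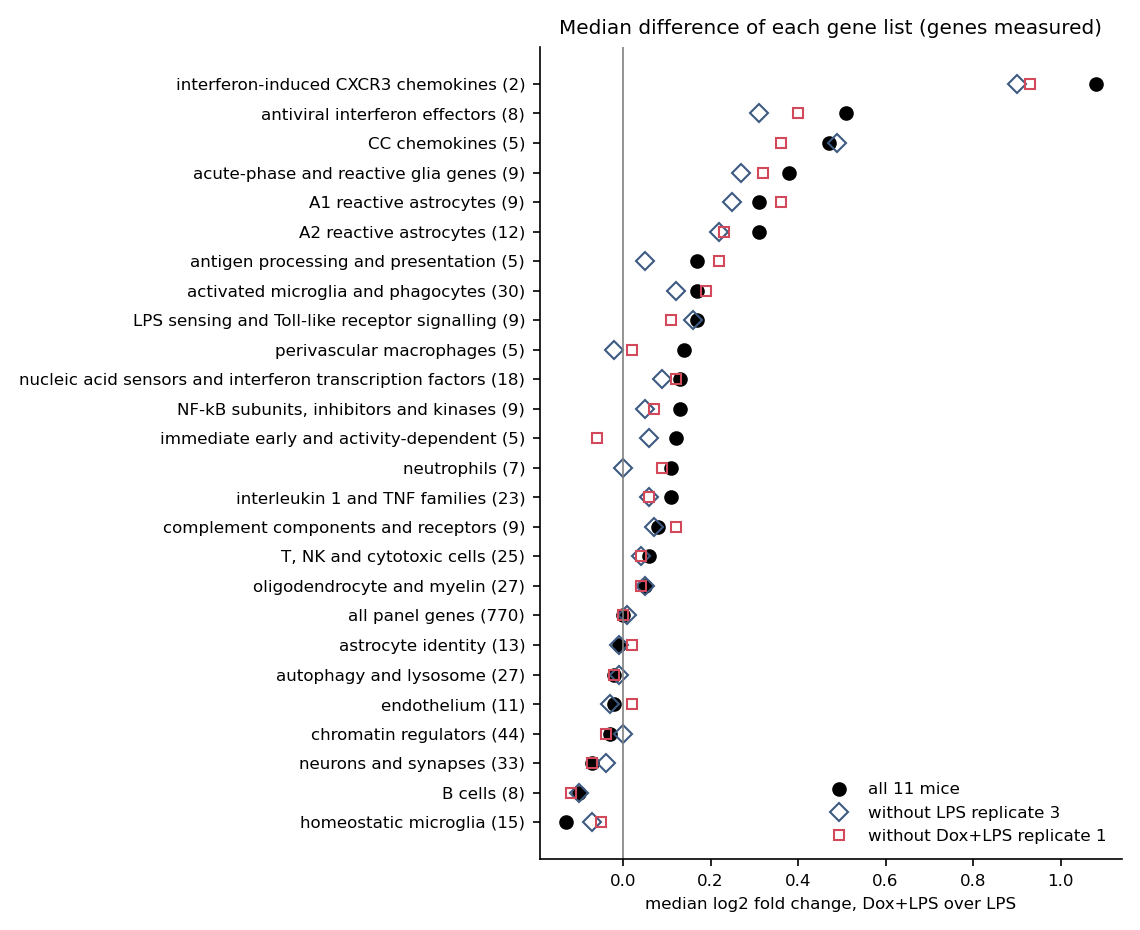
Median log2 fold change of Dox+LPS over LPS for each gene list and for the 770 panel genes, with the number of measured genes in brackets. Black circles use all 11 mice, diamonds leave out LPS replicate 3 and squares leave out Dox+LPS replicate 1. CXCR3 chemokines, of which only Cxcl9 and Cxcl10 were measured, stand at 1.08 and homeostatic microglia at -0.13, with all panel genes at 0.00.

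Genes of homeostatic microglia leaned lower over all mice, but not in females. Of 15 measured members 13 had a negative log2 fold change and 3 had an unadjusted p under 0.05, all on the lower side, with a median of -0.13. Gpr34, a receptor for lysophosphatidylserine on resting microglia, had 37.4, 46.7 and 60.5 normalized counts at the lowest, median and highest in Dox+LPS mice, against 53.5, 95.9, 73.2, 62.1 and 41.3 in LPS mice. The difference was -0.43 ± 0.16 (interval -0.76 to -0.09, adjusted p = 0.276), and 3 of the 5 LPS mice lay above every Dox+LPS mouse. P2ry12, the ADP receptor that guides microglial processes, differed by -0.22 ± 0.13 (adjusted p = 0.498) and by -0.07 without LPS replicate 3. Another member at an unadjusted p under 0.05 was Mef2c, which microglia use but which cortical neurons express strongly, and its source in tissue RNA cannot be told. Its normalized counts were 10301, 10438 and 11013 in Dox+LPS mice, lowest to highest, against 12017, 11516, 12512, 12478 and 11360 in LPS mice. The groups did not overlap, and the difference was small and precise (-0.19 ± 0.05, interval -0.29 to -0.09, adjusted p = 0.139). The median of the microglial list was -0.07 without LPS replicate 3 and -0.05 without Dox+LPS replicate 1. In the fit by group and sex it was -0.40 in males and 0.11 in females. In bulk cortex, fewer cells of a type and less RNA per cell cannot be told apart.

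Activated microglia and phagocyte genes went the other way in sign, with 25 of 30 positive, against 398 of 770 over the panel, and a median of 0.17. Only 3 of the 30 had an unadjusted p under 0.05, all higher, a share near the 8.05% of the panel. The median was 0.12 without LPS replicate 3 and 0.19 without Dox+LPS replicate 1. Csf1, the growth factor of microglia, differed by 0.18 ± 0.08 and Hcar2, a receptor of hydroxybutyrate, by 0.29 ± 0.13, while the phagocyte genes Tyrobp and Cd68 differed by 0.01 and -0.06. Of the 5 perivascular macrophage genes none had an unadjusted p under 0.05.

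Amigo2 led the reactive astrocyte genes by adjusted p. Amigo2, an adhesion molecule on the list of A1 genes that LPS induces in astrocytes, had 268, 293 and 345 normalized counts at the lowest, median and highest in Dox+LPS mice, against 202, 256, 180, 216 and 244 in LPS mice. The groups did not overlap (0.46 ± 0.12, interval 0.21 to 0.71, adjusted p = 0.139), and the value was 0.40 to 0.52 with any 1 mouse left out. The 9 A1 genes were all positive with a median of 0.31, and 3 had an unadjusted p under 0.05. The 12 A2 genes, first described after ischemia, had the same median of 0.31, and 6 had an unadjusted p under 0.05. These counts are not separate from those above. The A1 genes C3, Gbp2, H2-T23, Psmb8, Serping1 and Srgn and the A2 genes Cd14 and Ptx3 also belong to lists already described. Their source in tissue RNA cannot be told. Tm4sf1, an A2 gene that endothelium also expresses, had 258, 294 and 571 normalized counts in Dox+LPS mice, against 228, 284, 185, 232 and 249 in LPS mice (0.50 ± 0.15, adjusted p = 0.245). The highest count was that of Dox+LPS replicate 1, and the difference was 0.28 without it. Without LPS replicate 3 the A1 and A2 lists each had 2 members at an unadjusted p under 0.05, and without Dox+LPS replicate 1 each had 3. The A1 median was 0.25 without LPS replicate 3 and 0.36 without Dox+LPS replicate 1, and the A2 median 0.22 and 0.23. In the fit by group and sex the A1 median was 0.45 in males and 0.3 in females. That of A2 was 0.61 in males and 0.14 in females. Astrocyte identity genes did not share the shift, with a median of -0.01 over 13 genes, although Agt, the angiotensin precursor that astrocytes secrete, differed by 0.54 ± 0.20 (adjusted p = 0.260).

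Oligodendrocyte and myelin genes had a median of 0.05 over 27 members, with 3 higher and 1 lower at an unadjusted p under 0.05. Myrf, the transcription factor that switches on myelin genes, had 692, 775 and 1047 normalized counts at the lowest, median and highest in Dox+LPS mice, against 630, 641, 668, 618 and 650 in LPS mice. The groups did not overlap (0.31 ± 0.08, interval 0.15 to 0.48, adjusted p = 0.139). Without Dox+LPS replicate 1, whose 1047 counts stood well above the others, the difference was 0.22. Mag, a myelin adhesion protein, differed by 0.22 ± 0.08 (adjusted p = 0.245). The myelin genes Mog, Opalin and Ugt8a differed by -0.05, 0.11 and 0.05.

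Of 33 neuronal and synaptic genes none passed the threshold (lowest adjusted p 0.188). The log2 fold change was negative in 27, with 6 lower and 1 higher at an unadjusted p under 0.05 and a median of -0.07. In the fit by group and sex that median was -0.10 in males and -0.01 in females. Rbfox3, the RNA-binding protein NeuN of mature neurons, had 4476, 4590 and 4990 normalized counts in Dox+LPS mice, against 5487, 5021, 5424, 4949 and 4917 in LPS mice (-0.14 ± 0.04, interval -0.22 to -0.06, adjusted p = 0.188). Homer1, a scaffold of the postsynaptic density, had 2832 to 3159 in Dox+LPS mice, against 3487, 3652, 3497, 3275 and 3169 in LPS mice, without overlap (-0.20 ± 0.07, adjusted p = 0.276). The vesicular glutamate transporters differed in opposite directions, with -0.14 ± 0.06 for Slc17a7, the cortical form, and 0.29 ± 0.13 for Slc17a6. The catalytic subunits of calcineurin, Ppp3ca and Ppp3cb, each differed by -0.10 ± 0.03 (adjusted p = 0.245). Without LPS replicate 3, 2 neuronal genes had an unadjusted p under 0.05 on the lower side, and without Dox+LPS replicate 1 there were 8.

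Immediate early and activity-dependent genes differed in both directions, with a median of 0.12 over 5 measured members, 1 higher and 1 lower at an unadjusted p under 0.05. Bdnf, the activity-dependent neurotrophin, had 98.7, 112 and 137 normalized counts at the lowest, median and highest in Dox+LPS mice, against 164, 232, 130, 152 and 116 in LPS mice (-0.44 ± 0.15, adjusted p = 0.245). Atf3, a transcription factor of the stress response, differed by 0.70 ± 0.27 (adjusted p = 0.276). The immediate early genes Fos, Arc and Egr1 differed by 0.25 ± 0.46, 0.12 ± 0.39 and -0.14 ± 0.27. The median of the list was 0.06 without LPS replicate 3 and -0.06 without Dox+LPS replicate 1. It ranged from -0.06 to 0.67 with any 1 of the LPS-injected mice left out. LPS replicate 2 had 553.6 normalized counts for Fos, 1198 for Arc and 5394 for Egr1. The other LPS mice had 99.25 to 165.3, 274.3 to 448.6 and 1581 to 2158. Fos was also spread in Dox+LPS mice, from 83.5 to 399. In the fit by group and sex the list median was -0.15 in males and 0.69 in females.

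Of all 770 genes, 6 (0.779%) were higher in every Dox+LPS mouse than in every LPS mouse, and 8 (1.04%) were lower. The 6 were Cxcl9, Cxcl10, Amigo2, Myrf, Cd24a and Lyn, the last a kinase of innate immune receptors. Those that were lower were Mef2c, Homer1, Tpd52, Parp1, Hat1, Grm2 and Zfp367, with the eighth, Ms4a2, under background in all 11 mice. Their log2 differences ran from -0.20 for Homer1 to -0.11 for Tpd52, Ms4a2 aside. Without LPS replicate 3, 7 genes above background were higher and 7 were lower without overlap. Of all 770 genes 16 then did not overlap, against 14 with all mice, and a group with 1 mouse fewer overlaps less easily.

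The summed markers of the main cell types overlapped between the groups. The sum of 6 neuronal markers was 34268 to 37400 normalized counts in Dox+LPS mice, against 36568 to 40762 in LPS mice, and that of 6 oligodendrocyte markers was 12999 to 17331 in Dox+LPS mice, against 12024 to 14103 in LPS mice. The sum of 6 microglial markers was 1583 to 2933 in Dox+LPS mice, against 2379 to 3261 in LPS mice, and that of 6 endothelial markers was 1780 to 2674 in Dox+LPS mice, against 2495 to 2692 in LPS mice. Both low ends were those of Dox+LPS replicate 1, and the other Dox+LPS mice had at least 2486 for microglial and 2370 for endothelial markers. Of 7 measured T and NK cell markers 6, among them Cd3d, Cd3e, Cd3g and Cd8a, were under background in all 11 mice, as were all 3 measured B cell markers. Neutrophil markers summed to 167 to 236 in Dox+LPS mice, against 117 to 216 in LPS mice. How far cell composition entered the differences above was not tested.

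The same contrast was made in saline-injected mice, where sex was not balanced. The Dox mice were 3 females and 1 male, and the Untreated mice 2 females and 6 males. The fit had no term for sex, so dox and sex are partly mixed here and in the interaction below. Between Dox and Untreated mice 0 genes (0.0%) passed the threshold in the edgeR test (lowest adjusted p 0.268), and 41 (5.32%) had an unadjusted p under 0.05. Cxcl9 averaged 9.99 ± 2.63 normalized counts in 4 Dox mice and 13.7 ± 3.36 in 8 Untreated mice (SD), where it was under background in all but 1 mouse, and Amigo2 averaged 173 ± 26.2 in Dox mice and 193 ± 33.5 in Untreated mice. The interaction of LPS and dox, which asks whether the dox difference differs between LPS and saline and whose arms were on different cartridges, also had 0 genes past the threshold (lowest adjusted p 0.149) and 69 (8.96%) at an unadjusted p under 0.05. It was 1.33 ± 0.36 for Cxcl9 (adjusted p = 0.149) and 0.62 ± 0.18 for Amigo2 (adjusted p = 0.157). With 1 RUVg factor, 3 genes (0.39%) passed in the likelihood ratio test of edgeR, namely Amigo2, Casp4 and Cxcl9. Casp4 had 5.33 to 10.29 normalized counts in Dox mice and 8.032 to 24.28 in Untreated mice. Background was 16.1 to 24.19 counts in Dox mice and 15.4 to 22.74 in Untreated mice. For Casp4, as for Cxcl9, the saline arm of the interaction thus rests on counts near or under background.

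The difference by dox was not alike in the sexes for a few genes. In a fit with a mean for each group and sex, added after the data had been seen, the difference in males minus that in females passed an adjusted p under 0.05 in 4 genes, of which 3 (0.39%) were also past a log2 difference of 0.5 on the lower side and none (0.0%) on the higher side. Tmem119, a surface protein specific to microglia in the brain, had 294, 317 and 356 normalized counts in Dox+LPS males, against 407, 463 and 456 in LPS males. In females it had 444, 463 and 472 in Dox+LPS mice, against 378 and 353 in LPS mice. The groups thus stood apart in both sexes and in opposite directions (-0.46 in males and 0.33 in females, difference -0.79, adjusted p = 0.00416). Olfml3, another gene of resting microglia, had 58.2, 106 and 113 normalized counts in Dox+LPS males and 121, 163 and 198 in LPS males, and 168, 191 and 212 in Dox+LPS females and 121 and 96.6 in LPS females (difference -1.60, adjusted p = 0.0185). Erbb3, a neuregulin receptor of the oligodendrocyte lineage, differed by -0.67 in males and 0.41 in females (difference -1.08, adjusted p = 0.0203). Nefl, the light neurofilament chain, differed by -0.17 in males and 0.15 in females (difference -0.32, adjusted p = 0.0399).

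These sex values rest on 2 to 3 mice a cell, and males were in earlier lanes than females within each group, so lane and sex cannot be told apart. Without LPS replicate 5, 1 of 2 females of its group, none of the 4 kept an adjusted p under 0.05, while Tmem119 and Olfml3 passed with any other mouse left out. Erbb3 also missed it without Dox+LPS replicate 1, Dox+LPS replicate 6 or LPS replicate 4, and Nefl passed with 1 mouse left out only when that was LPS replicate 2. The homeostatic microglia list had a median log2 fold change of -0.40 in males and 0.11 in females. When females were fitted alone, the medians of 8 of the 25 lists turned sign or came to 0. In males of the fit by group and sex 14 genes (1.82%) were higher and 4 (0.519%) lower in Dox+LPS mice, among them Cxcl10 (1.82), Il1rn (1.71), Ccl3 (1.53), Steap4 (1.53) and Irf1 (0.80). In females of that fit 0 genes passed the threshold, with 41 at an unadjusted p under 0.05. Without LPS replicate 3, which is male, 0 genes were called in males in edgeR, with 99 genes at an unadjusted p under 0.05, and without Dox+LPS replicate 1 there was 1 call. Of the 18 genes called in males, the difference between the sexes itself passed the adjusted threshold for Erbb3 and Olfml3.

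**Figure D5:**
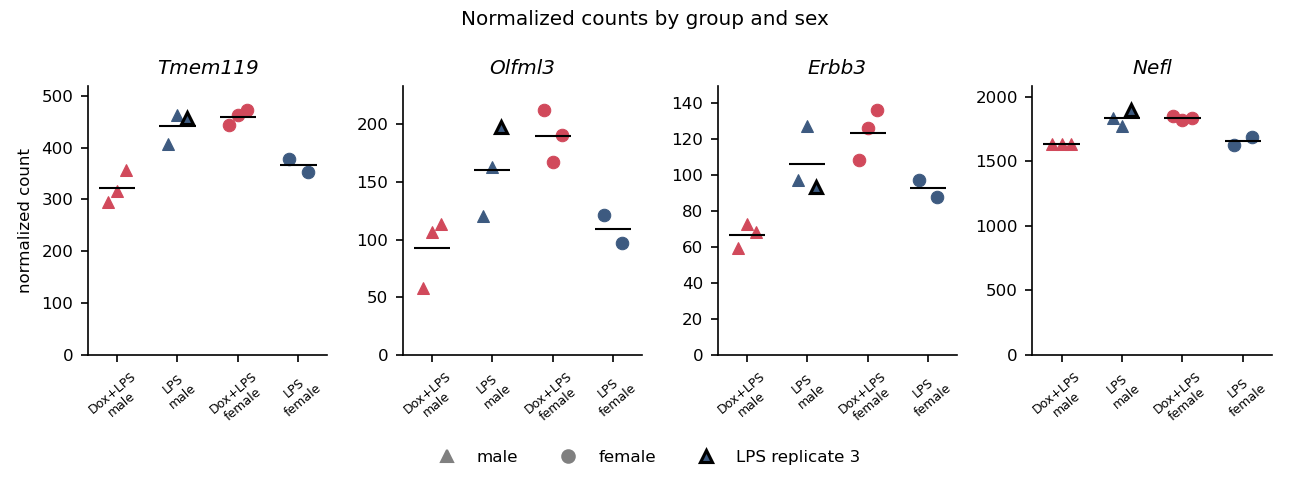
Normalized counts of the 4 genes whose difference by dox differed between LPS-injected males and females, with a line at each mean. In males (triangles) all 3 Dox+LPS mice lie below all 3 LPS mice for each gene, and in females (circles) all 3 Dox+LPS mice lie above both LPS mice.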

How the data were processed

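RNA of the cortex of 23 WT mice was measured with 784 probes (757 for endogenous genes, 13 housekeeping, 6 positive and 8 negative). The authors deposited the table exported from the instrument, recorded here as estimated counts. Every probe value in it is whole, and 1 column that matches no mouse was left out. Their upper quartile and RUVg normalized values, for which the submitters' processing notes name edgeR 3.38.4, were not used.

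The 770 genes were analysed with edgeR 4.0.16 (R 4.3.3) after upper quartile scaling, by the quasi-likelihood test with a mean for each group over the 23 mice, unfiltered, with Benjamini-Hochberg adjustment over all genes. Calls required an adjusted p below 0.05 together with a log2 fold change beyond 0.5 in either direction. Intervals (95%) came from the SE of the model. A normalized count is the count over its library's scaled size, itself taken relative to the mean. Principal components were computed on log2 normalized counts after adding 1. The test was tried on simulated data.

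Named genes were any gene called, the 10 higher and 10 lower with the smallest p among genes above background, up to 2 genes of each of 25 lists with the smallest p, and 13 genes named in the paper. A few genes under this rule are not reported here. Other named genes were chosen after their values were seen. Members, lists and tests were chosen with earlier results of these data known. Alternatives covered scaling (TMM, RLE, housekeeping, positive controls), the test (likelihood ratio, DESeq2 1.42.0, limma-voom of limma 3.58.1), 1 or 2 RUVg factors computed from the published description, filters, background subtraction, thresholds, the LPS-injected mice by themselves, sex, and leaving out single mice. The fit by group and sex and 2 fits without LPS replicate 3 were added after the data were seen. Replicate numbers follow the order of the record and pair no mice.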

Additional observations from a re-analysis of the deposited data

Results flagged for a closer look

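In groups of 5 or 6 mice, 12 of 132 tested had 1 mouse far from the others, and chance marks about 1 in 20 independent groups. These groups share the same mice, and many of their genes were named for a small p. The rate is therefore only a rough guide. Dox+LPS replicate 1 accounted for 7 of the 12. Its normalized count was 118 for Il1rn, against 19.3 to 45.7 in the other Dox+LPS mice, 369 for Steap4, against 103 to 192, 275 for Rsad2, against 74.7 to 115, and 571 for Tm4sf1, against 258 to 321. It was 1047 for Myrf, against 692 to 799, 65.5 for Fpr1, a formyl peptide receptor of phagocytes, against 18.4 to 31.8, and 59.2 for the checkpoint receptor Lag3, against 49.5 to 50.8. Dox+LPS replicate 4 had 11013 for Mef2c, against 10301 to 10458. In the LPS group, replicate 3 had 5449 for Lcn2, against 10667 to 11938 in the others. LPS replicate 2 had 57.9 for the pentraxin Ptx3, against 24.1 to 32.5, and 127 for Erbb3, against 87.8 to 97.5, and LPS replicate 1 had 27.3 for the macrophage lectin Siglec1, against 18.0 to 20.1.

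The difference by dox in LPS-injected males minus that in females, on the log2 scale, was -0.79 for Tmem119, -1.60 for Olfml3, -1.08 for Erbb3 and -0.32 for Nefl, each with an adjusted p under 0.05 in the edgeR fit by group and sex. With 1 mouse left out the difference ranged from -0.86 to -0.72 for Tmem119, -1.77 to -1.35 for Olfml3, -1.17 to -0.92 for Erbb3 and -0.34 to -0.29 for Nefl. Without LPS replicate 5 the adjusted p of that edgeR fit was 0.0886 for Tmem119 and 0.143 for Olfml3, Erbb3 and Nefl. Lane and sex cannot be told apart in these values.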

How the results depend on the processing

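No call of Dox+LPS against LPS was made with any 1 mouse left out, nor with TMM, RLE, housekeeping or positive control scaling, the likelihood ratio test, limma-voom, filters, background subtraction or sex as a covariate. DESeq2 called 2 genes higher, RUVg with 1 or 2 factors called 2 higher and 3 in the interaction, and females alone called 1 higher (Olfml3). Genes without overlap between groups, 13 above background with all mice, numbered 14 to 31 with 1 mouse left out, with 31 without LPS replicate 5, 22 without LPS replicate 2 and 20 without Dox+LPS replicate 2. A group with 1 mouse fewer overlaps less easily, so a rise in this count is no result by itself. Calls in males, 18 with all mice, ranged from 0 (without LPS replicate 3) to 33 (without LPS replicate 2) with 1 mouse left out, with 11 without Dox+LPS replicate 2 or 3, 6 without LPS replicate 1 and 1 without Dox+LPS replicate 1. Genes differing between the sexes, 3 with all mice, ranged from 0 (without LPS replicate 5) to 5 (without LPS replicate 2). Of 64 named genes, those that turned in females alone were C5ar1 (-0.03), Ccl3 (-0.02), Ccl5 (-0.62), Cp (-0.01), Emcn (-0.10), Entpd2 (0.03), Lcn2 (-0.10), Ms4a4a (-0.04), P2ry12 (0.11), Slc10a6 (-0.09) and Steap4 (-0.02), and in males alone Ugt8a (-0.09). Ccl5, near 0 with all mice, turned to -0.01 with positive control scaling, -0.03 with sex as a covariate and -0.30 in both added fits without LPS replicate 3, where Ms4a4a turned to -0.02. With 1 mouse left out Ccl5 ranged from -0.30 to 0.51 and Ms4a4a from -0.02 to 0.28. The cause of these changes was not tested, except that single-sex fits hold fewer mice. No paired analysis was possible because the labels give no replicate numbers that pair mice. Genes near background, such as Cxcl9, are limited by their low counts.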
